A study of Mus musculus with 2 samples.

Results

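The loci described here are those with the highest STAT5 peaks in effector CD8 T cells given IL-2. They were chosen from a deposited table of genes near STAT5 regions, by a highest peak height of 100 or more. That rule took 241 of the 4934 genes in the table, which is 4.88%. Genes that shared a region of the IL-2 library were merged, which gave 170 loci, named below by their genes. Of these loci, 126 had 1 chosen gene, 29 had 2 and 15 had 3 or more. Together they held 762 of the 5703 regions in the table.

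STAT5 binding was measured by ChIP-seq, which sequences the DNA that an antibody pulls down with its target protein. The antibody is labelled as against STAT5, and the protocol names the assay as one of STAT5A. The cells were OT-I CD8 T cells of strain C57BL/6, whose T cell receptor is a transgene that recognises the ovalbumin peptide SIINFEKL. They were transferred into mice and primed there with that peptide plus agonists of CD134 and CD137, receptors that costimulate T cells. After 4 days they were sorted from the spleen, and both groups share this history. The IL-2 group was 1 library of cells given IL-2 at 0.5 µg/ml for 1 hour. The untreated group was 1 library of cells given none. No group had a replicate, so no difference has a replicate check and no test was made.

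IL-2 is a growth factor of activated T cells. Its receptor carries the kinases JAK1 and JAK3, which phosphorylate STAT5. Phosphorylated STAT5 forms dimers, enters the nucleus and binds a short DNA sequence with inverted ends, often near genes of cytokine signalling, survival and proliferation. SOCS proteins and CISH, products of such genes, act back on the receptor and limit the signal.

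Heights are the authors' signal values, and read counts behind them are not given, so their precision is unknown. The rule used the height in the IL-2 library, so these heights and their ratios to the untreated library are descriptions and support nothing. What the rule did not use was the DNA sequence, the position of the regions, the functions of the genes and the height in the untreated library. The table lists 1 mean height per gene and library, plus the highest peak. For a gene with 1 region these are the values of that region. In genes with several regions, single heights were solved from the means and peaks of overlapping genes wherever only 1 solution existed. The region that holds the peak was determined in 44 of the 170 loci and was not determined in 126.

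STAT5 binding does not measure expression, so the labelled cell type could be checked only as genes with a listed region. All 7 genes of the list used for CD8 T cells had a listed region, and 1 of them was chosen. It was Cd8a, the alpha chain of the CD8 coreceptor, at a highest peak of 107. The others were lower, with Trac at 98, Cd247 at 81, Cd3d and Cd3g at 19 each, Cd8b1 at 17 and Cd3e at 15. The median of the 7 was 19. None of 2 CD4 T cell and none of 5 B cell marker genes was listed. Of 5 myeloid markers Itgax was listed at 13, and of 2 NK cell markers Klrb1c was listed at 19. All 3 regulatory T cell markers were listed, and Foxp3 and Il2ra were among the chosen genes.

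The DNA of a region could be read where its position fell in a RefSeq promoter window, which runs from 250 bases before to 50 bases after a gene's start (build GRCm38.p6). Of the regions with a solved height of 100 or more, 7 lay in such a window and could be read. They are printed in full because 6 of them hold the STAT motif TTCNNNGAA, where N is any base. The 7 are not every tall region near a start. The solved regions of Socs2 and Osm, at -71 and -113 bp from their listed starts, were not read. The fixed letters of the motif read the same on both strands, so a search of either strand finds the same matches. Capitals mark each match, each sequence runs 5′ to 3′ on the gene's strand, and positions count from 1 at its 5′ end.
Rasgrp1, chr2:117342828-117343127, minus strand: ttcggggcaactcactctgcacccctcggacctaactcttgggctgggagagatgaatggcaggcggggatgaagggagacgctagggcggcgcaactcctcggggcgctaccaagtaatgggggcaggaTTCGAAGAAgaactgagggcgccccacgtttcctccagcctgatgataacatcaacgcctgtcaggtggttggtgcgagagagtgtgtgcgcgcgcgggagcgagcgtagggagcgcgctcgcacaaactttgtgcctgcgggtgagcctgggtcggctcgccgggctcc
Zfp398, chr6:47835411-47835710, plus strand: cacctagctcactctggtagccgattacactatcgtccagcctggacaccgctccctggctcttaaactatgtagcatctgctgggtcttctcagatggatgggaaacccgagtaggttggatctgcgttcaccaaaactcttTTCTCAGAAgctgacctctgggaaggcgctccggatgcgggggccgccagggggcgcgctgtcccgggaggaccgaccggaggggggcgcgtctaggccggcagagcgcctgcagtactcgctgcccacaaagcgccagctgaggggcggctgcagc
Mrpl30, chr1:37890227-37890526, plus strand: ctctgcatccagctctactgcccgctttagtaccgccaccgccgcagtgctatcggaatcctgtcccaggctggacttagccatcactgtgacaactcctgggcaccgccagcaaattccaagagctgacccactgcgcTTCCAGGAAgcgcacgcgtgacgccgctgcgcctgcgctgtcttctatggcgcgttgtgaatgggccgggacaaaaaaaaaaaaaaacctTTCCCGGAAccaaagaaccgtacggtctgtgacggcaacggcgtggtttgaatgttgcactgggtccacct
Ripk1, chr13:34002624-34002923, plus strand: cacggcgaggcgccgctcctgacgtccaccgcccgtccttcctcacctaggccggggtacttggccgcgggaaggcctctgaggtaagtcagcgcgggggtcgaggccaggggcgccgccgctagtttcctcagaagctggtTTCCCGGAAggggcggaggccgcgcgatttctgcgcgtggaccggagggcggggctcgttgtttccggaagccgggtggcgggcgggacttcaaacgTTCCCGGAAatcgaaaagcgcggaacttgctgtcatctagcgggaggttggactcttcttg
Gm46822 (at the Gclm region), chr3:122245457-122245756, minus strand: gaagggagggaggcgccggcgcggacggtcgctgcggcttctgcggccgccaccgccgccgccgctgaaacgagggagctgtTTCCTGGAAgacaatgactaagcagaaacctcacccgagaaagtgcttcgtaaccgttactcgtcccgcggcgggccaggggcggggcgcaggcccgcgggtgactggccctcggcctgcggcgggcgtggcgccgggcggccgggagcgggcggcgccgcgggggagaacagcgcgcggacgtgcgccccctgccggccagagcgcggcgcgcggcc
Il18rap, chr1:40515112-40515411, plus strand: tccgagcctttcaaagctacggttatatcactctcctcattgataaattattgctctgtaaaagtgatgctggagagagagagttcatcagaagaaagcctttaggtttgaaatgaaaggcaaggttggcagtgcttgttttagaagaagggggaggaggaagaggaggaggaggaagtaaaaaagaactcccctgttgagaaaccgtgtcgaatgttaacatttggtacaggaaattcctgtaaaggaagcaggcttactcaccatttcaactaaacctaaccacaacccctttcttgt
Gtf2a2, chr9:70012298-70012597, plus strand: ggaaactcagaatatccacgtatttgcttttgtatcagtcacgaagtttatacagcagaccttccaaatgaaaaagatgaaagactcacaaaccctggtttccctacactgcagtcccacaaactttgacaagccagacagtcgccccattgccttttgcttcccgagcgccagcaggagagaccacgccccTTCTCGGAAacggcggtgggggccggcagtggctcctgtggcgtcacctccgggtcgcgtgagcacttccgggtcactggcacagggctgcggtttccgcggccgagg

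The Rasgrp1 window held the highest of these peaks. Rasgrp1, which activates Ras after T cell receptor signalling, had a region with a height of 140 in the IL-2 library, against 8 in the untreated library. Its window had a single match, TTCGAAGAA from position 131, whose centre was 17 bases from the region's position. At Zfp398, a zinc finger gene, the region had 117 with IL-2 and 4 untreated, and the match TTCTCAGAA was 6 bases away. The region shared by Mrpl30 and Mitd1 had 116 with IL-2 and 5 untreated, and its window held TTCCAGGAA and TTCCCGGAA. Mrpl30 encodes a mitochondrial ribosomal protein. Its nearest match was 130 bases from the position of the region, the farthest of the 6.

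Ripk1, a kinase of death receptor signalling, shared a region of 114 with IL-2 and 5 untreated with its neighbour Serpinb6a, a protease inhibitor. Its window held the same 9 letters, TTCCCGGAA, at positions 143 and 240. The region at Gclm, a subunit of the enzyme that starts glutathione synthesis, had 109 with IL-2 and 3 untreated. It was read through the window of the neighbouring gene Gm46822, with a single match, TTCCTGGAA, 58 bases away. The lowest of the set with a match was at Gtf2a2, a subunit of the basal factor TFIIA, with 100 in the IL-2 library against 5 in the untreated library. Its match TTCTCGGAA lay 30 bases from the position.

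Il18rap was the member without a match. It encodes a chain of the IL-18 receptor, its region had 105 with IL-2 and 5 untreated, and it lay at -2 bp from the gene's start. The absence of these letters concerns this window alone.

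A further 3 windows, all with a match, are shown from the tallest loci with a region in a window. The Mapkapk3 window, of the same locus as Cish and with a region of the same bounds, had no match and is not shown. In these the table did not determine which region of the gene holds the peak, so the height of the region shown is known only between bounds.
Lta, chr17:35205302-35205601, minus strand: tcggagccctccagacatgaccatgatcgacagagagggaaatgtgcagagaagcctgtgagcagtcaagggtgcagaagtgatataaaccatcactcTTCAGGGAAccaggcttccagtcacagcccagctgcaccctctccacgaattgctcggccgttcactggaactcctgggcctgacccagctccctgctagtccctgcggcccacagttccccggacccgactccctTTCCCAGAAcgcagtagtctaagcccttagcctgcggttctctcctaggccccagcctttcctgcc
Bcl6 (its second RefSeq start), chr16:23981234-23981533, minus strand: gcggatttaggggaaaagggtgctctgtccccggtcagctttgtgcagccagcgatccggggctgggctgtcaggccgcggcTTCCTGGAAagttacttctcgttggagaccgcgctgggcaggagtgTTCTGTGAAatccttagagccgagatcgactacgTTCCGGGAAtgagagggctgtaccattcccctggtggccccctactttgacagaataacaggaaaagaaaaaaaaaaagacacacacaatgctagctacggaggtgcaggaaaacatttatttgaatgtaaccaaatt
Cish, chr9:107296409-107296708, plus strand: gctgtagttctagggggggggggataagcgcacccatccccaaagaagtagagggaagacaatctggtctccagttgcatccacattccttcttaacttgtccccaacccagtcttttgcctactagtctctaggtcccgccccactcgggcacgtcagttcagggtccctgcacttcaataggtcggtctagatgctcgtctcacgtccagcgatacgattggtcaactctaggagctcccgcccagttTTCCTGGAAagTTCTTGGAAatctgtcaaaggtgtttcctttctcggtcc

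Lta encodes lymphotoxin alpha, a cytokine of the TNF family. The region in its window lay between 12 and 284 in the IL-2 library and between 0 and 16 in the untreated library, and the nearest of 2 matches was 13 bases away. Bcl6, a transcriptional repressor that antagonises Prdm1, had a window with 3 matches. The region there had at most 243 with IL-2 and at most 18 untreated. The Cish window had the matches TTCCTGGAA and TTCTTGGAA at positions 251 and 262, so that 2 motifs followed each other closely. Its region had at most 189 with IL-2 and at most 13 untreated. In all, 12 regions of chosen loci lay in a window and may hold the peak without a solved height, and 8 of them (66.7%) had the motif in the window.

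The share of windows with the motif anywhere in their 300 bases was higher at each higher step of the region's height. It was 23 of 88 (26.1%) for heights of 9 to 14, 32 of 84 (38.1%) for 15 to 19, and 27 of 46 (58.7%) for 20 to 29. Above these it was 19 of 28 (67.9%) for 30 to 49, 25 of 31 (80.6%) for 50 to 99, and 6 of 7 (85.7%) for 100 or more. The 95% Wilson interval of the last share ran from 48.7% to 97.4%, so it is not separated from the step before it, at 63.7% to 90.8%. Intervals here cover the counting of regions only. Of all 277 solved regions under 100 in a window, 126 (45.5%) had the motif. Of all 32851 RefSeq windows, 2726 (8.30%) had it.

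A narrower form, TTCTNAGAA or TTCCNGGAA, gave the same order of steps. Its share was 6.82% at 9 to 14, 8.33% at 15 to 19, 17.4% at 20 to 29, 35.7% at 30 to 49, 48.4% at 50 to 99 and 57.1% at 100 or more, where it was in 4 of the 7 windows. The share over all windows was 2.23%. Counting only matches near the position of the region, the tallest step was not the highest. Within 50 bases there was a match for 17 of 88, 18 of 84, 18 of 46, 13 of 28, 19 of 31 and 3 of 7 regions, from the lowest step to the highest. Within 100 bases it was 17 of 88, 25 of 84, 26 of 46, 18 of 28, 25 of 31 and 5 of 7. With 7 regions in the last step, these counts do not order it against the steps below it. The windows are all at gene starts. Regions elsewhere, and some near starts such as those of Socs2 and Osm, were not read for sequence.

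**Figure D1:**
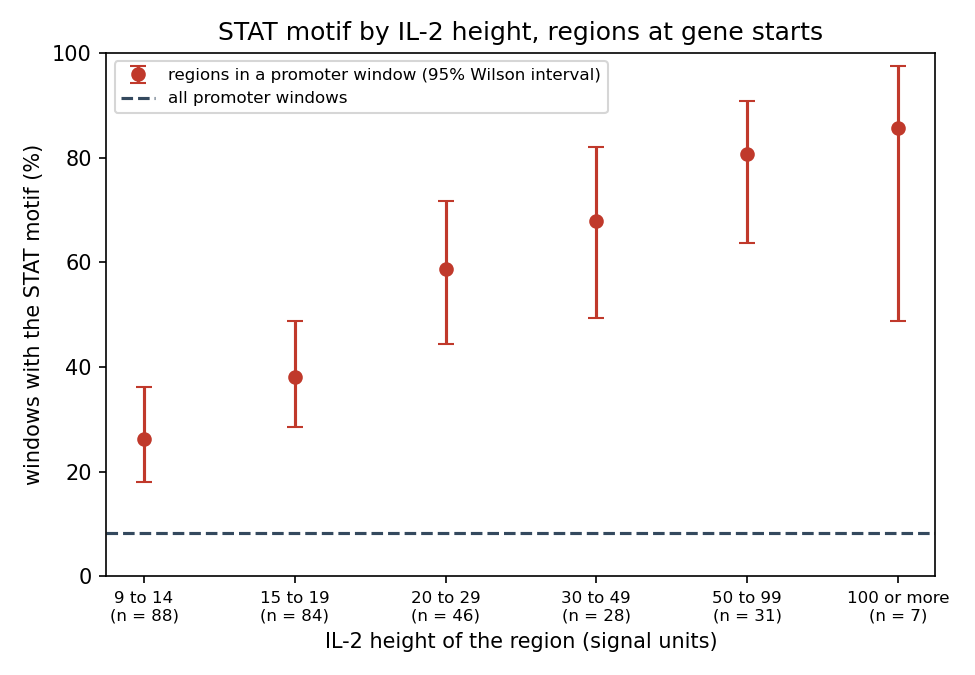
Share of RefSeq promoter windows with the motif TTCNNNGAA (vertical axis, percent), by the IL-2 peak height of the region in the window (horizontal axis, signal). Points are shares, bars are 95% Wilson intervals, and the dashed line is the share over all windows. The share with TTCNNNGAA is 85.7% at 100 or more and 26.1% at 9 to 14, and lies above the 8.30% of all windows at every step.

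Among the chosen genes, 41 had a single region and 200 had several. The 41 shared 30 distinct regions in 30 loci, and in these the peak is the height of 1 known region. The tallest was in Hemk1, a methyltransferase of translation release factors, at 238 in the IL-2 library against 6 in the untreated library. It lay 3790 bp into that gene on chromosome 9 at 107334560, and 6430571L13Rik was assigned the same region. The region of 2410131K14Rik had 170 with IL-2 and 3 untreated, 26677 bp downstream of the gene's start. Spata5 and Nudt6 shared a region of 153 with IL-2 and 5 untreated, 72 bp inside the start of Spata5. Lmna, which encodes the nuclear lamins A and C, had 148 with IL-2 and 5 untreated at -7036 bp. In each of the 30 the IL-2 height, which the rule used, was above the untreated height.

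Of the 41 single-region genes, 5 were transcription or chromatin factors. Ezh2, the histone methyltransferase of Polycomb complex PRC2, had 137 with IL-2 and 5 untreated at 1302 bp. Ehmt2, another histone methyltransferase, shared a region of 110 with IL-2 and 5 untreated with Zbtb12, which lay nearer to it. Nfkbiz, a nuclear IκB protein, had 112 with IL-2 and 7 untreated at 18385 bp. The region of Foxp3, the lineage factor of regulatory T cells, had 110 with IL-2 and 4 untreated. It lay at -8764 bp from Foxp3 and 3208 bp inside Ppp1r3f, which was assigned it as well.

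Another 3 were in the class of kinase, phosphatase and GTPase signalling. Map2k5, the kinase upstream of ERK5, had 109 with IL-2 and 2 untreated, 102524 bp into the gene. Ptpn4, a tyrosine phosphatase, had 105 with IL-2 and 2 untreated, 123855 bp into the gene. Both lay deep in their genes and had the lowest untreated heights of the 30. Nek6, a mitotic kinase, had 119 with IL-2 and 6 untreated. Clstn1 was assigned a region of 128 with IL-2 and 6 untreated that lay 43501 bp into Pik3cd, the catalytic PI3 kinase subunit delta.

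Socs2, a feedback inhibitor of cytokine receptors, had 127 with IL-2 and 5 untreated at -71 bp. Il23a, the specific chain of IL-23, and Pan2, a deadenylase, shared with Stat2 a region of 109 with IL-2 and 5 untreated. Gbp4, an interferon-induced GTPase, had 126 with IL-2 and 7 untreated at -6142 bp. Kcnk5, a potassium channel, had 129 with IL-2 and 7 untreated. Vprbp, a substrate receptor of a ubiquitin ligase, had 124 with IL-2 and 3 untreated at 760 bp. Lta4h, which makes leukotriene B4, had 115 with IL-2 and 6 untreated at -1220 bp.

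A region of 136 with IL-2 and 6 untreated was listed for the peroxidase gene Gpx8 and for the microRNA genes Mir449a and Mir449b, and lay inside Cdc20b. Tes, a LIM domain protein of focal adhesions, had 112 with IL-2 and 6 untreated at 915 bp. Rsph3a had 111 with IL-2 and 10 untreated, and Wdr37 had 109 with IL-2 and 5 untreated. Kctd17 had 108 with IL-2 and 7 untreated, in a region that lay 19258 bp into Tmprss6, which was assigned it as well. Klhdc1 had 104 with IL-2 and 4 untreated. Ociad1 had 101 with IL-2 and 6 untreated at -5946 bp, in a region nearer to 1700025M24Rik, at -2664 bp. The value of 10 at Rsph3a, in a region shared with Tagap, a GTPase-activating protein of T cell activation, was the highest untreated height of the 30.

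**Figure D2:**
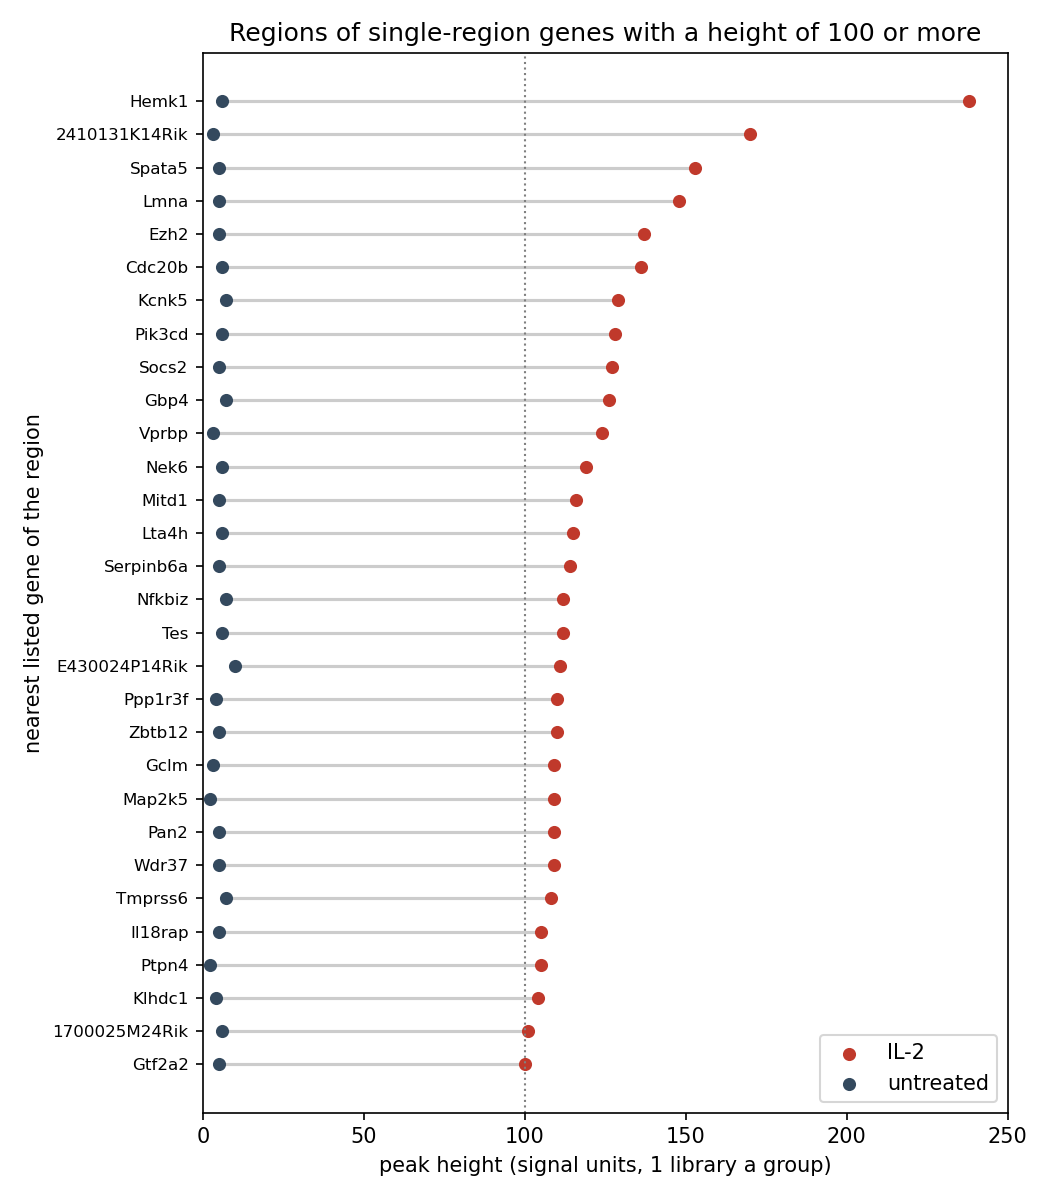
Height of the region (horizontal axis, signal) in the IL-2 library and the untreated library for the 30 loci of single-region genes, ordered by IL-2 height and labelled with the nearest gene. IL-2 heights run between 100 and 238 and untreated heights between 2 and 10, with 1 library per group.

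Loci whose genes had several regions included the highest peaks of all. At 284 the peak was shared by Lta, Tnf and Ltb, 3 neighbouring cytokines of the TNF family, and lay in either the Lta or the Tnf region. The table put another region of that cluster, at -155 bp from Ltb, at 23 in the IL-2 library and 8 in the untreated library. Bcl6 followed with 243 over 4 regions, and Tasp1, a protease that cleaves MLL, had 212 over 2. These 3 and Hemk1 were the 4 loci at 200 or more. Another 26 loci were at 150 or more and 140 were under 150, with 82 of them under 120.

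The next loci ran across signalling, cell cycle and survival. Prkcq, the protein kinase C that acts under the T cell receptor, had 196, Cdk6, a kinase of cell cycle entry, had 194, and Pik3r5, a regulatory PI3 kinase subunit, had 181. Cish and Mapkapk3 shared a peak of 189. Bcl2 and Bcl2l1, which encode inhibitors of apoptosis, had 177 and 168. Itpr1, the channel that releases calcium from internal stores, had 166. The untreated mean heights of these 8 genes lay between 4.22 and 6.75.

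Loci of this upper range also held genes with no defined place in the IL-2 response on the lists used. Cubn had 187, Osbpl8, a lipid transfer protein, had 174, Arid5a, an RNA-binding protein, had 171 and Hormad2, a meiotic protein, had 170. Agfg1 had 163 over 2 regions. Eif5a, a translation factor, Gps2 and Neurl4 shared 180. Hist1h2be, a histone gene, had 195 in a region 27812 bp from its start, against 4 in the untreated library. Its other 3 regions had 28, 20 and 19 with IL-2 and 5, 3 and 5 untreated.

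In genes with several regions the highest peak, which the rule used, exceeds the mean by construction, and its size is given as a description. The highest peak over the gene's mean IL-2 height had a median of 2.31 in the 200 genes, with a range of 1.11 to 4.32. At Tasp1 it made 92.6% of the summed heights, at Rasgrp1 92.7%, at Lta 84.8% and at Bcl6 80.2%. At Il2ra, which encodes the receptor's alpha chain, it made 33.7% over 6 regions, and at Foxp1, a transcription factor of T cell quiescence, 17.4% over 18 regions. This share falls with the number of regions by construction.

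Solved heights gave single regions within some loci. Socs1, a kinase inhibitor of the SOCS family, had 156 with IL-2 and 7 untreated in a region 13120 bp past its start, and 59 with IL-2 and 6 untreated 2144 bp past it. Jund, an AP-1 subunit, had 122 with IL-2 and 4 untreated at -2219 bp, and 20 with IL-2 and 6 untreated at 1205 bp. Junb, another AP-1 subunit, had 131 with IL-2 and 6 untreated at 2284 bp, and 60 with IL-2 and 5 untreated at -3876 bp. Ccnd3, cyclin D3, had its peak of 112 with IL-2 and 6 untreated 93381 bp along the gene, and 10 with IL-2 and 5 untreated at 3056 bp. In these 4 genes the tall region lay more than 1 kb from the start, whereas in Rasgrp1, Osm and Zfp398 it lay within 1 kb, at -99, -113 and -109 bp. Amica1, an adhesion molecule, had 160 with IL-2 and 8 untreated 4081 bp into the gene.

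The locus of Tnfrsf4 and Tnfrsf18, which encode the receptors CD134 and GITR, had 2 tall regions. One was 119 with IL-2 and 7 untreated, and the other was 91 with IL-2 and 6 untreated, while a region 26 bp inside the start of Tnfrsf18 had 17 with IL-2 and 6 untreated. All of these cells had received a CD134 agonist during priming, in both groups.

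The T cell receptor beta locus had the most regions of any chosen gene, with 23 in Tcrb. A region 663216 bp along it, 3859 bp past the start of Trbv31, had 105 with IL-2 and 7 untreated. At the other end a peak of 135 was listed for Trbv1. Between them, solved regions had 69 with IL-2 and 5 untreated at 311776 bp, and 66 with IL-2 and 5 untreated at 285984 bp. The gene segments of this locus have near-identical copies, and how the authors placed reads that fit several is not stated in the sources here, so its heights are uncertain.

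In the untreated library the chosen genes were close to the other genes of the table. Their mean untreated height had a median of 5.25 (quartiles 4.75 and 6), against 5 over all 4934 genes (quartiles 4 and 5.8). For the single-region genes among them the median was 5, with a range of 2 to 10. A mean untreated height of 8 or more was listed for 4 of the 241 genes, Mir101c, Rsph3a, Trbv31 and Slfn2. That is 1.66%, against 4.18% of all genes. Over the height steps of single-region genes the median untreated height was 4 at 9 to 14 and 15 to 19, and 5 at each step above, 100 or more included.

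The ratio of mean heights, each with 5 added, was at least 2 in 240 of the 241 genes. Of all genes 83.8% reached that ratio, and of all single-region genes 79.8%. The chosen genes were picked by the IL-2 height, so nothing is read from their count. Their median log2 ratio was 2.67, and 3.60 in single-region genes, against 1.42 over all genes. Adding 5 understates the ratio, since untreated heights are themselves near 5. The sources used here do not give the scaling of the libraries. With untreated heights multiplied by 4.15 to bring the medians of both libraries together, the median log2 ratio of the chosen genes was 1.28, against 0.15 over all genes. That scaling changed the median of all genes by -1.27.

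**Figure D3:**
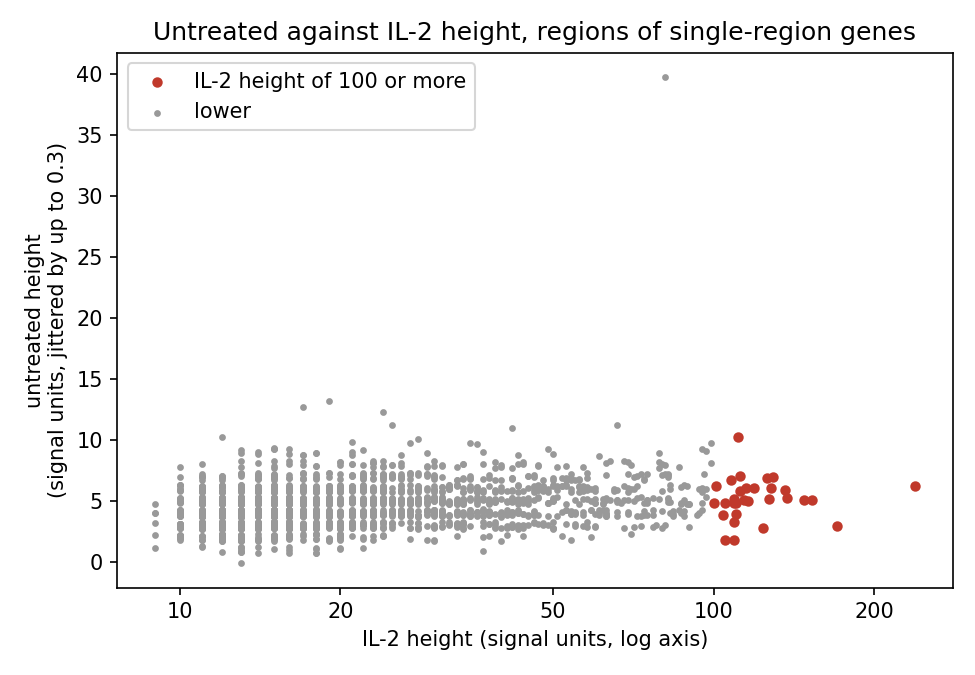
Height of each distinct region of a single-region gene in the IL-2 library (horizontal axis, signal, log axis) and in the untreated library (vertical axis, signal, points moved slightly at random so that they can be seen). The 30 regions at 100 or more with IL-2 have untreated heights between 2 and 10, and the 2215 lower regions between 0 and 40.

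Mir101c, a microRNA gene, was the exception to the ratio. It had a mean height of 129.5 in the IL-2 library, against 92.5 in the untreated library, a log2 ratio of 0.46. With both libraries at the same median the log2 ratio was -1.53, so its direction depends on the scaling. Both of its regions lay on chromosome 9, at 3030176 and 3035808, and both had between 115 and 144 with IL-2. A region called in the untreated library was listed for Mir101c, Ppp3cc and 2310001H17Rik, which are 3 of the 241 genes, against 0.243% of all genes. Ppp3cc, a catalytic subunit of calcineurin, had a mean of 45.8 with IL-2 and 6.33 untreated, and 2310001H17Rik had 60.7 with IL-2 and 6.17 untreated. These means are close to those of other chosen genes in the untreated library.

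How the share of tall regions at gene starts compared depended on the regions they were set beside. It was below that of lower regions among solved regions, but close to that of all regions in the table. In the smaller set of single-region genes it was not separated from that of lower regions. Of the 30 regions of chosen single-region genes, 10 (33.3%, Wilson interval 19.2% to 51.2%) lay at most 1 kb from a listed gene's start. Another 15 (50%) were elsewhere in a gene and 5 (16.7%) outside. Of the 2215 regions of single-region genes under 100, 1009 (45.6%, interval 43.5% to 47.6%) were at a start, 36.2% elsewhere in a gene and 18.3% outside. The interval of the 30 holds the share of the lower regions. Within 5 kb of a start the shares were 60% and 63.3%. The median distance to the nearest listed start was 2676 bp in the tall regions and 1541 bp in the lower ones.

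The share at a start was 56.1% at heights of 9 to 14, 47.9% at 15 to 19, 38.9% at 20 to 29, 35.6% at 30 to 49, 36.7% at 50 to 99 and 33.3% at 100 or more. The steps of 30 to 49, 50 to 99 and 100 or more lay within a few percentage points of each other. Of the 47 regions known to reach 100, those of genes with several regions included, 13 (27.7%, Wilson interval 16.9% to 41.8%) were at a start, 22 elsewhere in a gene and 12 outside. Of the 2532 regions with a solved height under 100, 1097 (43.3%, interval 41.4% to 45.3%) were at a start, which lies above the interval of the 47. Over all 5703 regions, solved or not, 1569 (27.5%) were at a start, which lies inside that interval. Of the 2532, 2215 were regions of single-region genes, so solved regions do not stand for the whole table. The interval covers the counting of regions only, and regions of 1 locus are not independent. Whether a region lay in an exon or an intron was not analysed here.

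**Figure D4:**
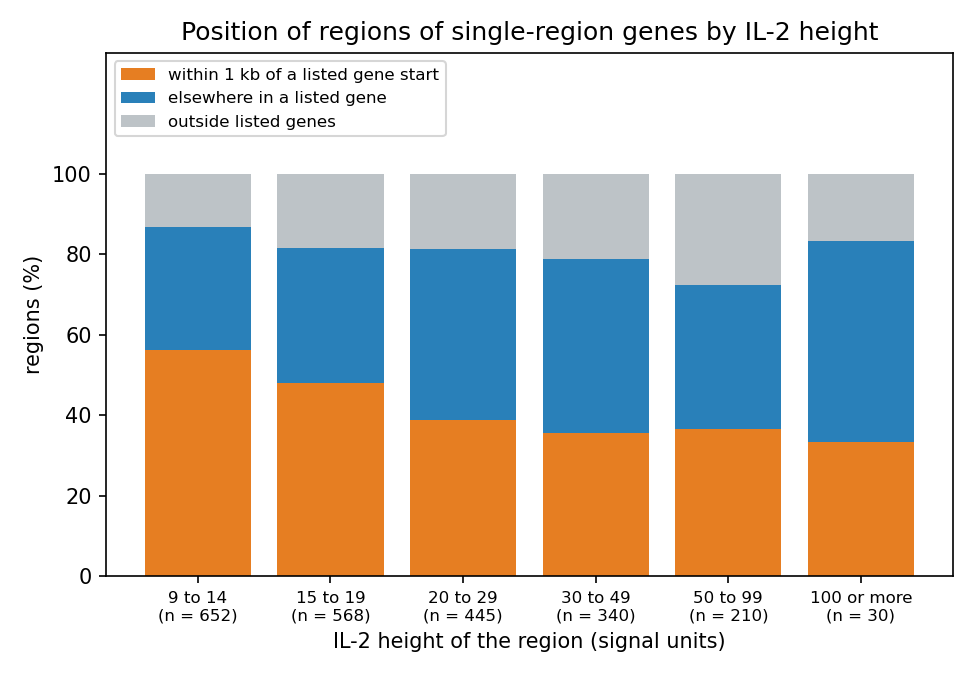
Share of the distinct regions of single-region genes (vertical axis, percent) within 1 kb of a start, elsewhere in a gene, or outside, by IL-2 height (horizontal axis, signal). The share at a start is 33.3% at 100 or more and 56.1% at 9 to 14.

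Genes with more regions more often reached 100. It was 41 of 3292 genes with 1 region (1.25%), 47 of 873 with 2 (5.38%), 85 of 551 with 3 to 4 (15.4%) and 38 of 150 with 5 to 6 (25.3%). It was 18 of 41 with 7 to 9 (43.9%) and 12 of 27 with 10 or more (44.4%). The highest of many regions is higher than that of few by construction, so this count says nothing of single regions. Single-region genes were 17.0% of the chosen genes, against 66.7% of all genes. The chosen genes had a median of 3 regions, against 1 over all genes.

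There were 12 chosen genes with 10 or more regions, of several kinds. Tcrb had 23, Akap13, an anchoring protein of kinase signalling, had 18, and Foxp1 had 18. Sema4d, a semaphorin of lymphocytes, and Vmp1, an autophagy protein whose gene contains Mir21, had 13 each. Atxn1 had 12, while Bcl2 and Hivep2 had 11 each. Cdk17, Ets1, a transcription factor of T cell development, and Gm8369 had 10 each.

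**Figure D5:**
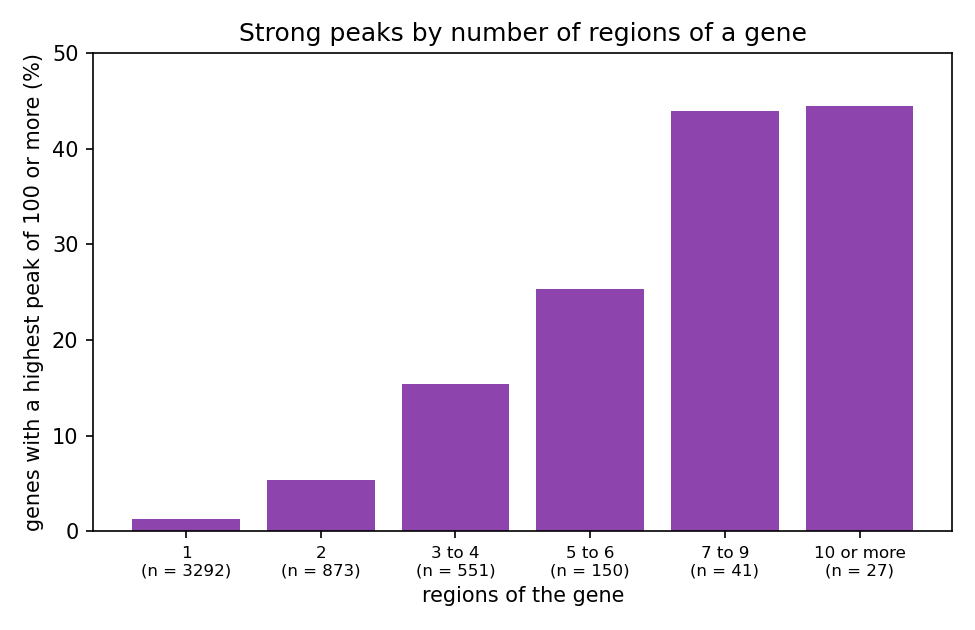
Share of genes with a highest peak of 100 or more (vertical axis, percent), by the number of regions of the gene (horizontal axis). It is 44.4% in genes with 10 or more regions and 1.25% in genes with 1.

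Function classes were made from the chosen genes alone. The share of each class over all 4934 genes is therefore not known, and class sizes are counts from which nothing is read. The cytokine receptor and JAK-STAT class had 15 chosen genes in 13 loci, with a median highest peak of 127. Receptor chains were Il2ra at 164, Il6ra at 141, Il23r at 115, Il18r1 and Il1rl1 in 1 locus at 108, Il4ra at 107 and Il18rap at 105. The 4 regions assigned to Il1rl1 all lay inside Il18r1, the nearest of them 26079 bp past the start of Il1rl1. STAT genes included Stat4 at 135 and Stat2 at 109. Inhibitors of the pathway were Cish at 189, Socs1 at 156, Ptpn2, a phosphatase of JAK1 and JAK3, at 136, Socs2 at 127 and Socs3 at 125. Il2ra had means of 81.2 with IL-2 and 5.5 untreated, and Stat4 had 42.8 with IL-2 and 5.13 untreated. The whole class had untreated means between 4 and 7.

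The TNF family, cytokine and death signalling class had 13 genes in 10 loci, with a median of 119. Ligands were Lta, Tnf and Ltb at 284 and Fasl, the ligand that triggers death through Fas, at 148. Receptors were Tnfrsf4 and Tnfrsf18 at 119, and Tnfrsf1b and Tnfrsf9 at 100, the last of which encodes CD137. Both groups had received a CD137 agonist in priming. Adaptors were Traf1 at 116 and Cradd at 110, beside Ripk1. Osm, a cytokine of the IL-6 family, had 134 with IL-2 at -113 bp, against at most 13 untreated. Untreated means of the class were between 4.33 and 7.

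Transcription and chromatin factors numbered 26 genes in 24 loci, with a median of 120. Beside those above they included Foxp1 and Nfkb1 at 130 each, Whsc1l1, a histone methyltransferase, at 142, and Bhlhe40, a repressor active in effector T cells, at 125. Kdm3a, a histone demethylase, had 117, Phc3, a Polycomb protein, had 109, and Ets1 had 101. Untreated means were between 4 and 7.

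The class of T cell receptor, kinase, phosphatase and GTPase signalling had 36 genes in 36 loci and a median of 119. Under the receptor these included Prkcq, Fyn, a Src family kinase, at 121, and Themis at 119. Cblb, a ubiquitin ligase that restrains activation, had 122. Dusp5, a phosphatase of ERK, had 132, and Ptpre 105. Pim1, a kinase induced by cytokines, had 107 with means of 32.3 with IL-2 and 6.17 untreated. Ptger4, a receptor of prostaglandin E2, had 104. The untreated means of the class ran between 2 and 7.33.

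Survival and cell cycle genes were 6 in 6 loci, Bcl2, Bcl2l1, Mcl1 (at 101), Cdk6, Cdk17 and Ccnd3, with a median of 144. Their highest peaks ran between 101 and 194. All 6 had several regions, which raises a highest peak by construction. Interferon-induced genes were 5 in 4 loci, among them Gbp4, Gbp5, Gbp7 and Slfn2, with a median of 126. Gbp5 and Gbp7 shared a peak of 159. Metabolic and redox genes were 6 in 6 loci with a median of 115.5. Gpx8 had 136, Prdx2, a peroxiredoxin beside Junb, had 131, and Me1, which makes NADPH, had 110. MicroRNA genes were 4 in 3 loci, and Mir21 there had a peak of 101 over 7 regions with means of 27.6 with IL-2 and 6.29 untreated. The 122 genes outside the classes, in 94 loci, had a median of 121.

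Of a list of 54 genes of the IL-2 receptor and JAK-STAT pathway and its known targets, 40 were in the table and 21 of these (52.5%) were chosen, against 4.88% of all genes in the table. The list was made with results of these data known, so its share is a description. Receptor, kinase and STAT genes were mixed. Il2ra was chosen, but Il2rb, the beta chain, had 61, Jak1 had 51, Stat5b 24, Jak2 22 and Stat3 17. Il2, Il2rg, Jak3, Tyk2, Stat5a and Stat6 were not in the table. Among inhibitors Cish, Socs1, Socs2, Socs3 and Ptpn2 were chosen, whereas Socs4 had 24 and Ptpn6 28.

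Other list members were below 100. Gzmb, the cytotoxic protease granzyme B, had a highest peak of 31, Prf1, perforin, had 16 and Ifng, interferon gamma, had 14. Myc, a driver of growth, had 13. Il7r, the receptor chain of IL-7, had 94 and stood just under the rule, with Ccnd2, cyclin D2, at 77 and Prdm1, the repressor Blimp1, at 70. Osm, Lta and Bcl6 were chosen with the values above.

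The threshold of 100 lay within a continuous range of heights. At exactly 100 were 7 genes, among them Bnip2, Gtf2a2, Lamc1, Prkca, Tnfrsf1b and Tnfrsf9, and at 99 were 8 more genes outside it. Of those outside, Casp8, a protease of death receptor signalling, had means of 47 with IL-2 and 3.75 untreated over 4 regions. Dhx37, a helicase, had 99 with IL-2 and 10 untreated, and Gm9875 had 99 with IL-2 and 8 untreated. These 3 are the first of the 8 in alphabetical order.

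Chosen loci were on 20 chromosomes. Chromosome 6, with the T cell receptor beta locus and Foxp1, had 18 of the 170 (10.6%), against 6.72% of all regions. Chromosome 11 had 16 and chromosome 1 had 15. Chromosome 12 had 1 locus, Klhdc1 (0.588%), against 3.24% of all regions. Shares of loci and of regions are in unlike units, since a locus can hold many regions, so nothing is read from them. In 7 cases a chosen locus lay within 100 kb of another.

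The closest pair was Cish with Mapkapk3 and Hemk1 on chromosome 9, 25808 bp apart. Il18r1 with Il1rl1 and Il18rap, which encode receptor chains of the IL-1 family, lay 35552 bp apart. Socs1 had neighbours on both sides, Clec16a at 47168 bp with a peak of 143 and Rmi2 at 50827 bp with 103. Osm and Hormad2 were 85200 bp apart, with peaks of 134 and 170, and Cradd and Socs2 93200 bp apart, with 110 and 127. Akap13 and AU020206 were 59648 bp apart.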

How the data were processed

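STAT5 ChIP-seq of 1 library of OT-I cells with IL-2 and 1 without was used as deposited by the authors. BWA and the build mm10 were used, per the submitters' processing notes. Peak caller, depth and library scaling are not stated here. The deposited table holds peak heights, a signal that is never negative: a mean per gene and library, the highest peak, and each region's distance from the gene start. It has 0 columns of other samples.

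The members, lists and function classes were chosen with earlier results of these data known, and the 9 classes were made from the gene names after seeing them. The genes named were the 20 highest loci, the 3 loci nearest the threshold on each side, the 5 single-region loci with the highest and the 5 with the lowest untreated height, every list gene, the 10 genes with most regions and the loci that could be read. Others were named for their function or single height after their values were seen. Genes sharing an IL-2 region name were merged into loci. Positions were computed from start and distance, which gave 1 position whichever gene was used for 5714 of 5714 intervals of both libraries, and 5449 of 5703 IL-2 regions lay on a 16 bp grid. Region heights were solved as whole numbers from gene means and peaks (SciPy 1.17.1), which determined the IL-2 height of 2577 of 5703. On simulated data the solver determined 676 of 1526 heights, and all 676 were right. The simulated heights followed the solver's own assumptions, so this checks the code and not the heights solved from the deposited values. RefSeq (GRCm38.p6, the mm10 build) matched 4799 genes in all and 233 chosen ones, of which 184 had a promoter window of 300 bases. Python 3.11.15, NumPy 2.4.6, pandas 2.3.3 and Matplotlib 3.10.9 were used. The log2 ratio is that of mean heights plus 5, IL-2 over untreated, and Wilson intervals have a level of 95%. Other thresholds, pseudocounts, scalings, distances and motif forms were tried. Region lengths were not analysed here. Some genes that the naming rule took are not named in this text.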

Additional observations from a re-analysis of the deposited data

How the results depend on the processing

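With 1 library per group, no library could be left out. No paired analysis was possible because the design has a lone library per condition. The number of chosen genes follows the threshold. It was 440 genes in 302 loci at a height of 80, 121 in 88 at 120, 41 in 30 at 150, and 46 in 35 with a mean IL-2 height of 100, against 241 in 170. The median log2 ratio of 2.67 became 3.30 with 1 added, 2.19 with 10 added, 1.28 with libraries scaled to the same median, 3.64 with the highest peak and 3.60 in single-region genes. The share of regions at a start was 60% within 5 kb, and the motif share at 100 or more was 42.9% within 50 bases of the position, below that at 50 to 99. With scaled libraries 162 chosen genes reached a ratio of 2, against 689 of all 4934 genes. Untreated median and regions per gene moved little. The pathway count was 22 at a height of 80 and 16 at 120, against 21. Leaving out Mir101c, wider windows, and regions assigned to 1 gene only were chosen after seeing the data, and the last gave a start share of 20%. Depth is unknown, so heights near 5 have no stated error.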
